A study of Equus caballus with 12 samples.

Results

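The miRNAs encoded in the myosin heavy chain genes of striated muscle were examined in the heart, lung and liver of the horse. The members are 3 miRNAs chosen by name, eca-miR-208a, eca-miR-208b and eca-miR-499-5p (written from here on without the horse prefix eca), out of 294 known horse miRNAs and 629 rows in the authors' table. Small RNA was sequenced from 4 healthy Polish cold-blooded stallions aged 1 to 2 years, sampled at a slaughterhouse, and no treatment is described. The left ventricle of the heart, the caudal lobe of the right lung and the right lobe of the liver were taken from each animal (horses 27, 30, 32 and 34), which gave 12 libraries and 4 per tissue. All values are normalized counts, which are reads per mature miRNA divided by a size factor of the library. The p-values rest on the spread between animals within each tissue, which the limma fits pool over the 3 tissues. The main tests did not pair libraries by horse. The samples were pieces of whole tissue, in which fewer cells of a type and less RNA per cell cannot be told apart.

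Several of the miRNAs known from muscle are carried in introns of the genes that code for the motor protein of the sarcomere, and are made from the same primary transcripts as the myosin mRNA. miR-208a is encoded in MYH6, the gene of the fast alpha myosin heavy chain that dominates in the atria of large mammals. miR-208b is encoded in MYH7, the gene of the slow beta myosin of ventricle and slow skeletal fibres, and miR-499 in MYH7B. In mouse studies these miRNAs are known for acting on the balance between slow and fast myosin genes and for their part in cardiac stress. In the horse assembly TB-T2T, MIR208A lies within the span of MYH6, MIR208B within MYH7 and MIR499 within MYH7B. MYH6 and MYH7 are next to each other among the protein-coding genes, while MYH7B lies on another chromosome. That assembly is not the one the authors mapped to, so no positions are given.

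In each library, every value was a whole multiple of 1 step (within 0.01 of a whole number) when the lowest value above 0 was taken as 6 reads, the minimum read count of the study. A 0 in the table is therefore a miRNA not listed in that library, and it cannot always be read as a count under 6. Over the 3 tissues, 13 known miRNAs were at 0 in a library while another library of the same tissue held at least 100 reads, and for 7 of them it held at least 1000. Chosen after the values were seen, miR-103 is one such case, with 0 in the heart of horse 27 against 7016 to 11921 reads in the other hearts, and miR-142-5p is another, with 0 in the lungs of horses 32 and 34 against 14043 and 9433 reads in those of horses 27 and 30. The cause of these zeros was not tested. miR-499-5p was above 0 in every library. Heart libraries held 8113895 to 9355513 reads in the table. The range was 3536536 to 7560746 for lung libraries and 3066869 to 8595569 for liver libraries. The smallest value above 0 was 6.71 to 10.1 normalized counts in hearts, with a range of 3.71 to 6.79 in lungs and of 3.96 to 11.1 in livers. The liver of horse 27 and the lung of horse 34 had the fewest reads. Marker miRNAs stood where the tissue labels placed them: the summed level of miR-1, miR-133a, miR-133b and miR-206 was 5117892 to 8120688 in heart, at most 12236 in lung and at most 6107 in liver. The 3 hepatocyte miRNAs summed to at least 983907 in liver and at most 3278 elsewhere, and the 9 miRNAs of airway epithelium to at least 85446 in lung and at most 7500 elsewhere.

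miR-499-5p was the most abundant of the members. It reached 141724, 215256, 340490 and 291587 normalized counts in the hearts of horses 27, 30, 32 and 34, a mean of 247264 ± 87214 (SD, n = 4). In lung the same horses gave 89.4, 163, 382 and 336, a mean of 243 ± 139. In liver they gave 98.0, 273, 189 and 339, a mean of 225 ± 105. The lowest heart value was thus far above every lung and liver value, while the lung and liver values overlapped. Heart levels rested on 113997 to 304603 reads, lung levels on 111 to 544 and liver levels on 53 to 514. For the 53 reads in the liver of horse 27, the exact 95% Poisson interval ran from 39.7 to 69.3 reads, which covers counting error only. The hepatocyte miRNA miR-122, named after its values were seen, averaged 1129549 in liver, 1518 in heart and 1408 in lung. Where the low levels of either miRNA outside its main tissue come from was not tested.

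Among the known miRNAs of each library, miR-499-5p ranked between 6th and 13th in heart, between 127th and 157th in lung and between 134th and 169th in liver. Per 1000000 reads of known miRNAs, hearts had 14056 to 32960 reads of miR-499-5p. Lungs had 18.8 to 88.2 and livers 17.7 to 61.3. Heart held 99.8% of the sum of its 3 tissue means. Of the 161 known miRNAs with a heart mean of at least 100, 6 had at least 99% of that sum in heart. These were miR-208b, miR-499-5p, miR-1, miR-133a, miR-133b and miR-708, the last seen in 1 heart library and named after its value was seen.

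miR-208b was listed in every heart and in no other library. Its heart values were 1749, 1769, 2100.4 and 1741 normalized counts in horses 27, 30, 32 and 34 (1839.9 ± 174, SD, n = 4), on 1407, 1190, 1879 and 1035 reads. Horse 32 stood above the other animals, which lay close together. All 4 lung and all 4 liver libraries listed it at 0. If each of these zeros stood for fewer than 6 reads, the heart mean would be at least 271-fold higher than in lung and at least 166-fold higher than in liver. The table does not show whether it did, given the zeros of other miRNAs above. miR-208b ranked between 76th and 88th of the known miRNAs in heart. It was also 1 of 3 known miRNAs above 0 in all 4 hearts and at 0 in all other libraries. The other such miRNAs, miR-592 and miR-384, averaged 60.8 ± 26.7 and 35.2 ± 16.1.

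miR-208a was detected in a single library. The heart of horse 27 held 255 normalized counts on 205 reads (exact 95% Poisson interval 178 to 235 reads), and the hearts of horses 30, 32 and 34 listed it at 0, as did all lung and liver libraries. In horse 27, miR-208a stood at 14.6% of the level of miR-208b. At that ratio the other hearts would have held 173, 274 and 151 reads, far above the 6 reads that a row needed. The ratio comes from 1 library, so these reads do not show what the other hearts held. miR-208a is itself 1 of the 4 known miRNAs at 0 in a heart beside at least 100 reads in another heart. The others are miR-103, miR-17 and miR-708, named after their values were seen. A low level of miR-208a can therefore not be read from its zeros. Of 15 known miRNAs above 0 in exactly 1 heart, 8 were in horse 27, and the one with a higher value than miR-208a was miR-708, at 997. The heart of horse 27 also had the highest sum of the 9 airway epithelium miRNAs, at 1374, close to 1333 in horse 34 and above 334 and 428 in horses 30 and 32. Its 3 hepatocyte miRNAs summed to 1328, within the range of 847 to 3278 over the hearts. The part of other cells in the miR-208a value was not tested. miR-208a and miR-208b are closely related in sequence. How reads were split between these names was not examined, so the values of both miRNAs carry this uncertainty.

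**Figure D1:**
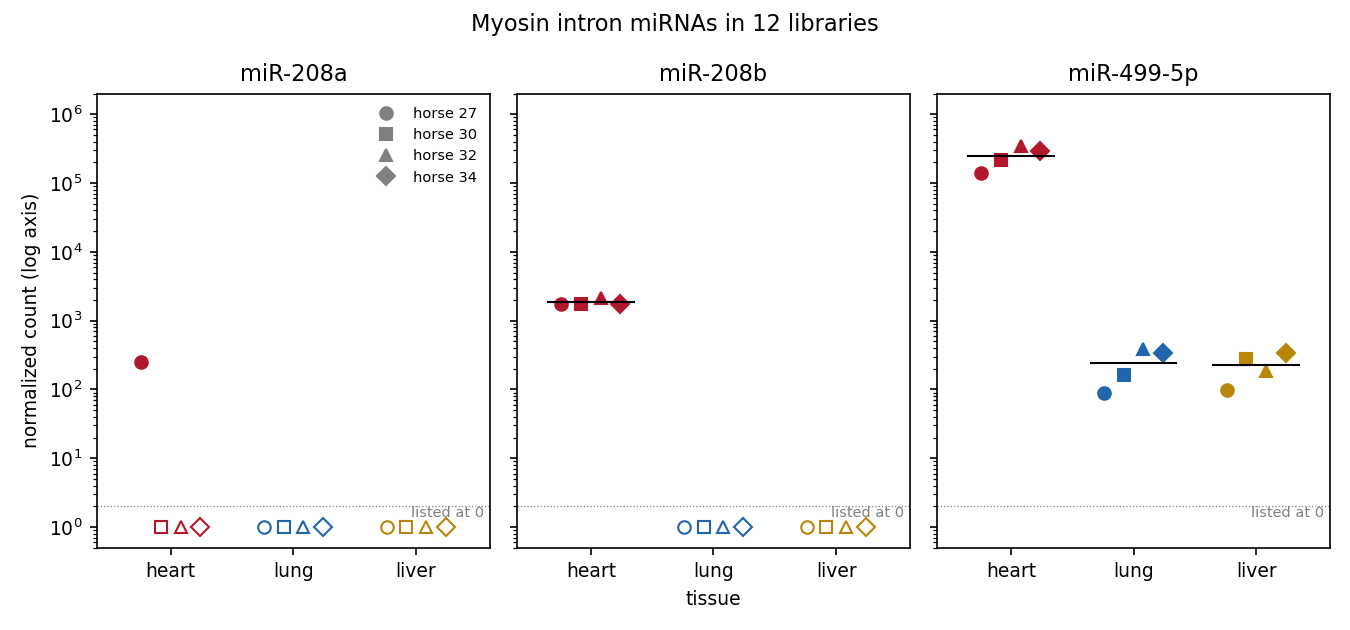
Normalized counts (y axis, log scale) of miR-208a, miR-208b and miR-499-5p by tissue (x axis) in 12 libraries, with a marker for each horse, open markers for values listed at 0 and black lines at the mean of 4 libraries where all are above 0. miR-208a has 1 filled point at 255 in the heart of horse 27, miR-208b lies between 1741 and 2100.4 in heart only, and miR-499-5p is at 141724 or above in every heart and at most 382 in lung and liver.

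Even where a 0 stands for fewer than 6 reads, the listing minimum limits what the zeros of miR-208b can show. miR-499-5p averaged 1019-fold higher in heart than in lung and 1100.2-fold higher than in liver. With the same proportion between tissues, miR-208b would have had 0.826 to 4.05 reads in the lung libraries and 0.394 to 3.82 reads in the liver libraries. All of these lie under 6 reads. A lower share of miR-208b than of miR-499-5p outside the heart was therefore not detectable at this depth.

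**Figure D2:**
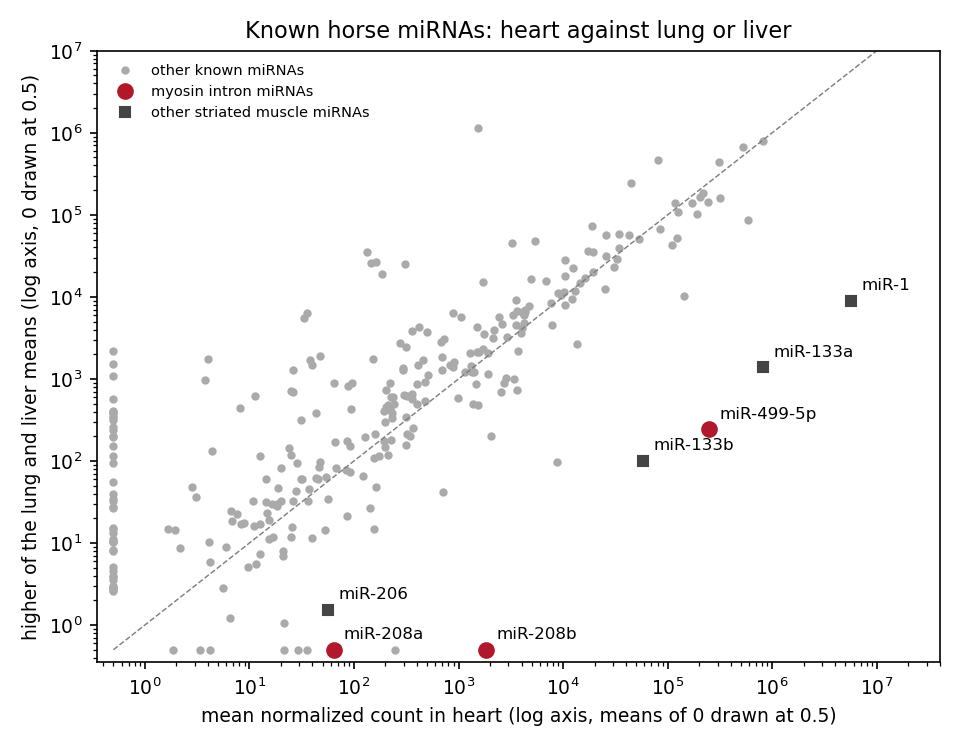
Mean normalized count in heart (x axis, log scale) against the higher of the lung and liver means (y axis, log scale) for the 294 known miRNAs, with the myosin intron miRNAs in red, the other striated muscle miRNAs as dark squares, all others in grey and means of 0 drawn at 0.5. The dashed line marks equal levels; miR-499-5p lies below it at 247264 in heart against 243, in a row with miR-1, miR-133a and miR-133b, and miR-208a and miR-208b lie at 0 on the y axis.

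Tissues were compared with limma on log2(normalized count + 1) over the 256 known miRNAs with 10 or more normalized counts in 4 or more libraries. Calls needed an adjusted p under 0.05 (Benjamini-Hochberg over all 256) and a log2 fold change beyond 1 in either direction. Of the 3 members 2 passed the filter. miR-208a did not, since it was present in 1 library. miR-208b passed through its heart libraries alone, so its difference between tissues follows from the filter. For miR-499-5p the log2 fold change of heart over liver was 10.16 (standard error 0.51, adjusted p = 1.54e-08, limma), where 19.9% of all tested miRNAs were called and higher in heart and the same share, 19.9%, had 4 hearts above all livers. That of heart over lung was 10.13 (standard error 0.51, adjusted p = 1.86e-08, limma), where 19.1% were called and higher in heart and 21.9% had 4 hearts above all lungs. By size of the increase in heart, it ranked 5th of 256 against liver and 2nd against lung. Both comparisons share the heart libraries.

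The fitted log2 fold change of miR-208b was 10.84 in heart over either tissue, but its size depends on the pseudocount, and it was 7.53 with 10 in place of 1 and 7.28 when every library was scaled to 1000000 reads. When no filter was applied, miR-208a had a log2 fold change of 2.00 in heart over both tissues, with an adjusted p of 0.290 against liver and 0.312 against lung (limma).

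No member was called between lung and liver. miR-499-5p had a log2 fold change of 0.03 in lung over liver (adjusted p = 0.976, limma; 95% interval -1.10 to 1.16), in a comparison where 51.6% of all tested miRNAs were called in either direction. miR-208a and miR-208b were at 0 in both tissues. Of the 4 other miRNAs of striated muscle 3 were called higher in lung than in liver, against 64 of all 256 tested. Their log2 fold changes were 1.71 for miR-1, 2.20 for miR-133a and 3.22 for miR-133b (adjusted p = 0.00620, 0.0173 and 0.0207, limma). The liver of horse 27 listed miR-133b at 0, so the size of its fold change depends on the pseudocount. It ran from 2.09 to 3.50 over the 9 alternatives described below. miR-206 was not called (0.71, adjusted p = 0.376, limma). These calls were not stable when a horse or library was left out, which also left fewer values to test. miR-1 kept its call in 11 of 12 such fits, miR-133b in 9 and miR-133a in 8. Without horse 32 none of the 3 passed (adjusted p = 0.0563, 0.0524 and 0.0652, limma), and without horse 34, or its lung library alone, neither miR-133a (0.0749 and 0.0519, limma) nor miR-133b (0.0796 and 0.0585, limma) did. The call of miR-133a also ended without the liver of horse 27 (0.0540, limma).

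All 4 of these miRNAs, which take part in the differentiation and growth of muscle, were called higher in heart than in liver and than in lung, with median log2 fold changes of 11.23 and 9.14, beside -0.23 and 0 over all 256 tested miRNAs. miR-206 passed the filter through its heart libraries alone, so its calls follow from the filter as those of miR-208b do, and the medians of the other 3 were 11.49 and 9.26. In heart over lung, the log2 fold changes of 3 of them (miR-133a 9.29, miR-1 9.26 and miR-133b 9.02) were smaller than that of miR-499-5p, and in heart over liver they were larger (11.49, 10.98 and 12.24), with standard errors of 0.45 to 1.05. Without the liver of horse 27, which listed miR-133b at 0, that of miR-133b in heart over liver was 11.18. miR-206, best known from skeletal muscle, was low throughout, at 38.5 to 80.8 in heart, at 0 in every liver and at 6.18 in 1 lung library. miR-486-5p, listed apart as a miRNA of muscle and blood, was less confined to heart, which held 69.4% of the sum of its 3 tissue means. Its log2 fold change was 4.25 in heart over liver and 1.44 in heart over lung (adjusted p = 1.36e-06 and 0.00839, limma).

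**Figure D3:**
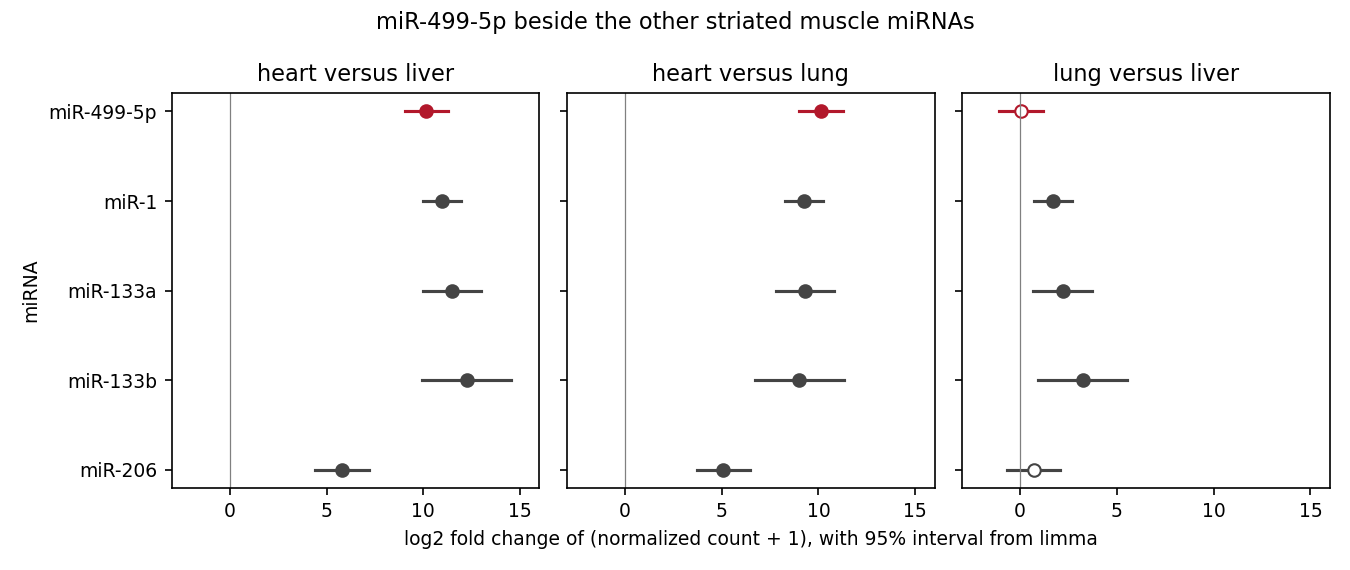
Log2 fold changes of log2(normalized count + 1) (x axis) of miR-499-5p (red) and 4 other striated muscle miRNAs (y axis) in 3 comparisons of tissues; points are limma estimates, bars are 95% intervals and open points were not called. miR-499-5p lies at 10.16 and 10.13 in the comparisons with heart and at 0.03 in lung versus liver. The liver of horse 27 listed miR-133b at 0, so its fold changes over liver depend on the pseudocount.

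A ratio of listed values within a library does not depend on how libraries are scaled, and miR-499-5p was therefore also set against the other abundant muscle miRNAs. Per 1000 normalized counts of miR-1, it stood at 30.4, 38.6, 76.3 and 37.3 in the hearts of horses 27, 30, 32 and 34. In lung the values were 11.3, 16.1, 43.2 and 37.5, and in liver 74.2, 57.7, 127 and 57.3. The lung and liver ratios did not overlap, while the heart ratios overlapped with both. Against miR-133a, hearts ranged from 106 to 1029.6 per 1000, lungs from 110.0 to 503 and livers from 408 to 1904.

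The tests used log2(normalized count + 1) of each miRNA. On this scale, the ratio of miR-499-5p to miR-1 averaged -4.55 ± 0.58 in heart, -5.42 ± 0.93 in lung and -3.73 ± 0.54 in liver (SD, n = 4 each). The largest of the 9 differences tested (3 partners in 3 pairs of tissues) lay between lung and liver. The mean of lung minus liver was -1.68 for the ratio to miR-1 (exact two-sided permutation p = 0.0286, the smallest that 4 against 4 allows), -2.16 for miR-133a (exact permutation p = 0.0571) and -3.19 for miR-133b (exact permutation p = 0.0571). After adjustment over the 9 comparisons each of these had p = 0.171 (exact permutation test), and no comparison passed. Under this adjustment a comparison can pass only if most of the 9 reach the smallest p. The lack of a pass therefore does not show that the ratios were equal. miR-133b was listed at 0 in the liver of horse 27, so that ratio, 6.63, is set by the pseudocount and by the scaling of the library. Without that library and with no pseudocount, lung minus liver was -2.55 and heart minus liver -1.45 for miR-133b, with adjusted p = 0.257 and 0.314 (exact permutation test). Between heart and lung the ratios differed by 0.84 to 1.11, with adjusted p = 0.314 for all 3 partners (exact permutation test). Between heart and liver they differed by -2.08 to -0.81, with adjusted p = 0.257 for all 3 (exact permutation test).

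**Figure D4:**
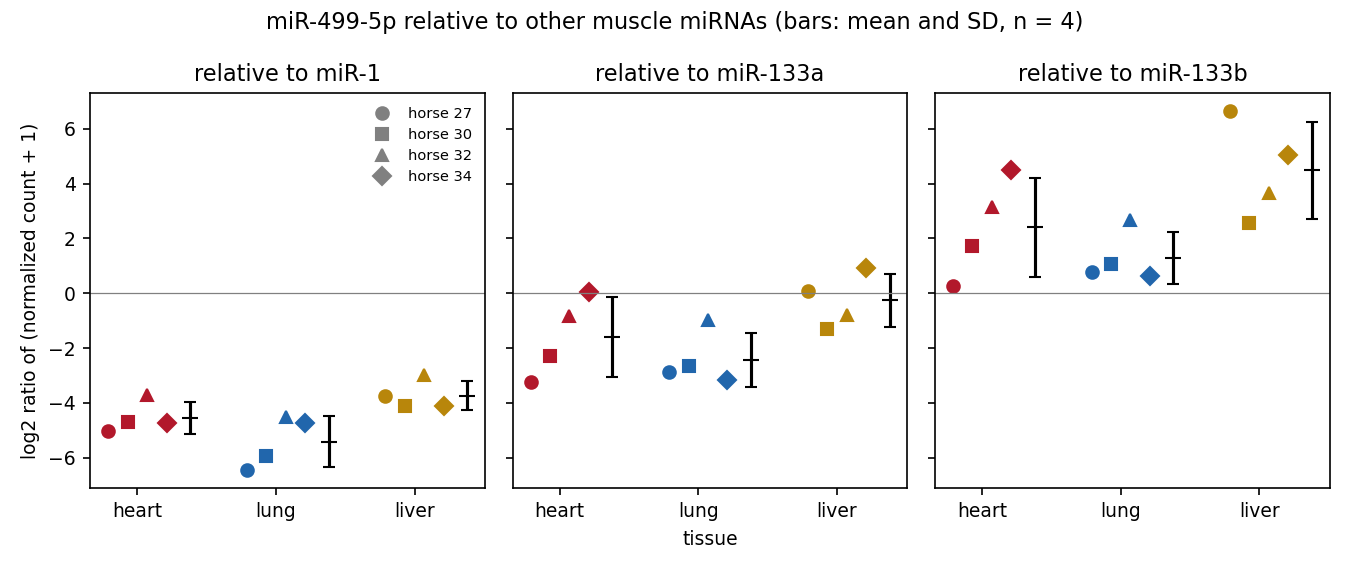
Log2 ratio of miR-499-5p to miR-1, miR-133a and miR-133b (y axis, log2 of normalized count + 1 of each) by tissue (x axis), with a marker for each horse and the mean and SD of 4 libraries in black. The ratios to miR-1 run from -6.45 to -4.53 in lung and from -4.12 to -2.97 in liver, without overlap, and the ratio to miR-133b spreads from 0.28 to 4.48 over the 4 hearts.

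Per animal, miR-499-5p was 1585-, 1319-, 892- and 868-fold higher in heart than in lung in horses 27, 30, 32 and 34, and 1445-, 789-, 1804- and 859-fold higher than in liver. Horse 27 had the lowest level in each of the 3 tissues. In normalized counts the horses stood in the same order in heart and lung, with horse 32 highest, followed by horses 34, 30 and 27. Per 1000000 reads of known miRNAs, lung was highest in horse 34, at 88.2, above 75.9 in horse 32, so that the orders were no longer the same. In liver, horse 34 was highest, followed by horses 30, 32 and 27. With 4 animals no relation between tissues was tested. miR-133a did not share this order: it fell from 1332974 in the heart of horse 27 to 283203 in that of horse 34, whereas its lung level was highest in horse 34, at 3055 against 665 to 1037 in the other lungs.

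Within the heart, miR-499-5p made up 98.6 to 99.4% of the sum of the 3 members and miR-208b 0.594 to 1.22%. Together they took 1.43 to 3.32% of the known miRNA reads of the hearts, where miR-1 alone took 43.2 to 51.7%. miR-499-5p exceeded miR-208b 81.0-fold in horse 27, 122-fold in horse 30, 162-fold in horse 32 and 167-fold in horse 34. Small RNA libraries capture different sequences with different efficiency, so these ratios describe reads and not molecules. A paired exact test of 4 animals cannot pass 0.05, and the members were not tested against each other.

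The spread between animals is described for the 2 members above 0 in all hearts, and its difference between them was not tested. Over the 4 hearts, the coefficient of variation of normalized counts was 9.46% for miR-208b and 35.3% for miR-499-5p, beside 27.4% for miR-1, 56.7% for miR-133a and 75.7% for miR-133b. Of the 161 known miRNAs with a heart mean of at least 100, 9 varied less than miR-208b and 87 less than miR-499-5p, and the median was 33.8%. Counting error alone gives 2.31 to 3.11% for the heart reads of miR-208b. The range of miR-208b widened under another scaling. Per 1000000 reads of known miRNAs, its values were 173, 148, 203 and 115 in horses 27, 30, 32 and 34, with a coefficient of variation of 23.4%, and 42 of the 161 miRNAs varied less. miR-1, which itself makes up 43.2 to 51.7% of that total, varied by 7.48% on this scale. For miR-499-5p the coefficient of variation was 39.0% on this scale, and the median of the 161 was 35.3%.

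**Figure D5:**
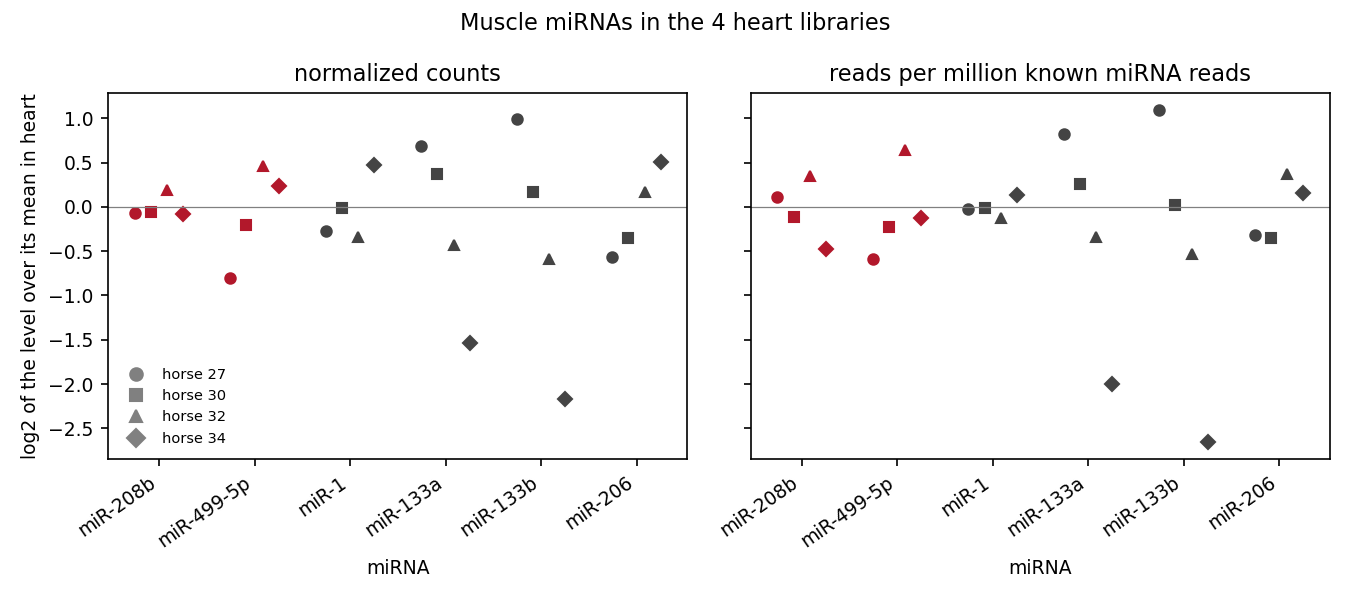
Log2 of the level in each heart library over the mean of the 4 hearts (y axis) for 6 muscle miRNAs (x axis), in normalized counts on the left and in reads per 1000000 reads of known miRNAs on the right, with a marker for each horse and the myosin intron miRNAs in red. miR-208b spans 1741 to 2100.4 normalized counts on the left but 115 to 203 reads per 1000000 on the right, and miR-133a and miR-133b spread more widely than either member in both panels.

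The known miRNAs whose pattern over the 12 libraries was most like that of miR-208b, by Pearson's r of log2(normalized count + 1), were miR-592 (0.99), miR-499-5p (0.99), miR-384 (0.99), miR-1 (0.98) and miR-133a (0.97). For miR-499-5p they were miR-208b (0.99), miR-1 (0.98), miR-592 (0.98), miR-384 (0.98) and miR-133a (0.96). These values describe the shared step between heart and the other tissues, since the points share animals and tissues. Their levels in heart span from 35.2 for miR-384 to 5630097 for miR-1. miR-208a was left out, as it was above 0 in fewer than 4 libraries.

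The other arms of the members' hairpins, miR-208a-5p, miR-208b-5p and miR-499-3p, were not found by name. The table also holds 335 rows named by their sequence, and 6 of these shared the pattern of miR-208b, above 0 in all 4 hearts and in no lung or liver library. They are shown 5′ to 3′ because they are the unnamed small RNAs closest to miR-208b in where they were listed, and were picked after their values were seen. Capitals mark bases 2 to 8, the position at which a miRNA has its seed, the stretch that pairs with targets. Whether these rows are miRNAs of their own or read variants of listed miRNAs was not tested. The capitals therefore mark a position and not a known seed. Which hairpin or transcript each comes from was not analysed here.
Heart row 1: aACAUAGAggcucaaaccg
Heart row 2: uGGAAAGCaaagaaguaug
Heart row 3: uGGGCUCUgccgaggaccucucguc
Heart row 4: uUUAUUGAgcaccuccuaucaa
Heart row 5: uUUAGUGUgauaauggcguuuga
Heart row 6: uGGCGCGGcugugccagcgagcg
Their heart means were 218 ± 114, 206 ± 78.7, 132 ± 22.5, 65.3 ± 32.7, 58.0 ± 14.6 and 37.8 ± 8.02 normalized counts (SD, n = 4), all below the lowest heart value of miR-208b. Their lengths ran from 19 to 25 bases.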

How the data were processed

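Small RNA of 12 libraries (3 tissues of 4 horses) was analysed from 1 table. The authors' methods name FastQC 0.12.1, Trim Galore 0.6.7 (18 to 25 nt), sRNAbench against miRBase 22.1 and EquCab3.0 with a minimum read count of 6, and DESeq2, whereas the tools in the submitters' processing notes are BWA, Trimmomatic, bcl2fastq, FastQC and DESeq2. The deposited values are a signal, counts that the authors divided by a size factor of each library. The table's columns on the authors' own comparison of liver with lung (log2 fold change, its error, statistic and p-values) and its overall mean were not used. The members, lists and tests were chosen with earlier results of these data known. The members, the other striated muscle miRNAs, miR-486-5p and the 5 miRNAs most like each member are named, and any other miRNA is marked as named with its value known.

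Values were tested with limma 3.58.1 in R 4.3.3 (trend, all 12 libraries in 1 fit, a mean for each tissue) on log2(normalized count + 1), and ratios with exact two-sided permutation tests. Both were tested on simulated data. matplotlib 3.10.9, pandas 2.3.3, numpy 2.4.6 and scipy 1.17.1 ran under Python 3.11.15. The same horse number is the same animal, so the numbers pair the samples. The correlation of deviations from the mean of each tissue was -0.27 to 0.15 (median -0.06) over 12 pairs of libraries from 1 horse. Over 36 pairs from different horses it was -0.27 to 0.36 (median 0.03). Alternatives were another pseudocount, filter, set of rows or scaling, the horse as a block, no fold minimum, and each horse or library left out. Reads in the table rest on 6 reads as the lowest listed count, and the precision of low values follows from them. A 0 was not taken as a proven count under 6. The mature sequences of the members are not given here.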

Additional observations from a re-analysis of the deposited data

Results flagged for a closer look

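In groups of 4 libraries, a sample was marked when its gap to the nearest other sample took up more of the range of the group than Dixon's 95% critical value for 4 values. The groups were the members, the other striated muscle miRNAs, miR-486-5p and the log2 ratios in each tissue, and 5 of 28 whose values were not all 0 were marked. This cannot be set against the 1 in 20 that chance would mark. A group with a single value above 0 is always marked, as miR-208a in heart and miR-206 in lung were. The marks of miR-133a and miR-133b share a library. miR-208a in heart was marked for horse 27, at 255 normalized counts against 0 in the other hearts. miR-208b in heart was marked for horse 32, at 2100.4 against 1741 to 1769; per 1000000 reads of known miRNAs the same library was highest at 203, with 115 to 173 in the others, but its gap took up 0.34 of the range and it was not marked on that scale. The other 4 marks held on both scales. In lung, miR-133a was marked at 3055 and miR-133b at 216, both in horse 34. miR-206 in lung was marked at 6.18, its value in horse 30, with 0 in the other lungs.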

How the results depend on the processing

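In heart over liver and heart over lung, miR-499-5p kept its direction and its call under all 9 alternatives and with each horse or library left out (12 ways each). miR-208b did too, but as it was above 0 in hearts alone its call was fixed by the filter and shows no stability. The log2 fold change of miR-499-5p ran from 8.93 to 10.17 against liver and from 8.77 to 10.14 against lung over the alternatives, with the lowest values with CPM (libraries scaled to equal totals), which moved the median of all tested miRNAs by -0.99 and -1.03. In lung over liver miR-499-5p was not called under any of them, and its direction was not fixed: with a horse or library left out the log2 fold change ran from -0.32 to 0.44. With the horse as a block it was 10.16 in heart over liver, 10.13 in heart over lung and 0.03 in lung over liver, and no call of a member or of a ratio changed with the block. The count of all called miRNAs stayed within 1.5 times of 120, 99 and 132, but with CPM the split of higher against lower moved from 51 and 69 to 27 and 137 in heart over liver and from 49 and 50 to 16 and 121 in heart over lung. No ratio passed under any alternative, but tests of 3 against 3 or of pairs within 4 horses are too small to pass. Tests of 4 against 4 can pass only if most of the 9 comparisons reach the smallest p. With a pseudocount of 10 the ratio to miR-133b moved from -2.08 to -0.86 in heart minus liver and from -3.19 to -2.06 in lung minus liver. Tests on read counts were not run, since the values are normalized, and the sequence-named rows were not matched to hairpins. Outside the heart, miR-208a and miR-208b can be said to be listed at 0 and no more, since zeros of 7 other miRNAs in the table stand beside at least 1000 reads in other libraries of the same tissue.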
